A study of Homo sapiens with 2 samples.

Results

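Genes of protein folding in the endoplasmic reticulum (ER) are described here: HSPA5, HSP90B1, CALR, PDIA4, PDIA6, DNAJB9, SDF2L1, HERPUD1, XBP1 and ERO1A. They were taken by symbol, 10 of the 36601 features of the count matrices, and all 10 were found. The counts come from Visium sections of 2 MDA-MB-231 tumors. MDA-MB-231 is a human cell line of triple-negative breast cancer. Here it carries a hypoxia fate-mapping reporter, a construct that changes a cell's fluorescence once it has met low oxygen. Both tumors (called tumor 1 and tumor 2) belong to a single untreated group and were frozen 18 days after implantation. Slices of 10 µm were laid on slides whose barcoded spots each capture RNA from a small region that can hold several cells. The labels give the host neither strain nor age, and do not say that the tumors came from separate animals, so the spread between them may be in part technical. Comparisons were made within each section, between spots with a high and a low hypoxia score and between tissue far from and near the tumor border.

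Secreted and membrane proteins fold in the ER lumen, where HSPA5 (BiP), an Hsp70 chaperone, and HSP90B1 (GRP94), an Hsp90 chaperone, bind unfinished chains and CALR (calreticulin) binds those that carry sugars. Protein disulfide isomerases such as PDIA4 and PDIA6 make and rearrange disulfide bonds, and ERO1A re-oxidises the isomerases with molecular oxygen as the electron acceptor. When unfolded protein builds up, the sensors IRE1, ATF6 and PERK start the unfolded protein response, in which ATF6 and spliced XBP1 switch on chaperone and degradation genes. ERO1A is also a known target of the hypoxia-inducible factors.

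Promoter elements are shown because most members hold a form of the ER stress element, the DNA sequence through which ATF6 with NF-Y acts. Windows from 250 bases before to 50 after the annotated start were taken from RefSeq (GRCh38.p14), which gave 13 windows for the 10 members. The element was searched as CCAAT, 9 bases of any kind and CCACG, on both strands. It was found in 27 of 35116 windows (0.0769%), and 5 of the 10 members held it. A short form, ATTGG, 1 base and CCACG, was found in 19 windows (0.0541%), and HERPUD1 and SDF2L1 held it. The copies in the members are given below 5′ to 3′ in the direction of the element, with the fixed bases in capitals.
HSPA5: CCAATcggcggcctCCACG
HSP90B1, distal copy: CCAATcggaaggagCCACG
HSP90B1, proximal copy: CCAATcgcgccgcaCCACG
CALR: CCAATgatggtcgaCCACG
PDIA6: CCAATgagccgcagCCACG
XBP1: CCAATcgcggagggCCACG
HERPUD1, short form: ATTGGgCCACG
SDF2L1, short form: ATTGGtCCACG

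The HSPA5 copy lies at chr9:125241391-125241409, 66 to 48 bases before the start, and the XBP1 copy at chr22:28800603-28800621, 52 to 34 bases before it. HSP90B1 has its copies at chr12:103930216-103930234 and chr12:103930321-103930339. The other copies lie at chr19:12938384-12938402 (CALR), chr2:10812853-10812871 (PDIA6), chr16:56932025-56932035 (HERPUD1) and chr22:21642114-21642124 (SDF2L1). No match to either form was found in the windows of PDIA4, DNAJB9 and ERO1A. The core of the hypoxia response element, ACGTG or GCGTG, is short and common: 48.4% of all windows held it, and so did those of 9 of the 10 members, HSPA5 being the exception. Of its 29 matches in the members, 6 overlapped an ER stress element. The upstream stretches of HSPA5 and ERO1A are printed whole, on the strand of the gene, to show both kinds of match. In HSPA5 (chr9:125241344-125241593) the capitals mark the ER stress element, and in ERO1A (chr14:52695559-52695808) they mark hypoxia response cores, which here read on the opposite strand. A match is a description of the letters and not a bound site.
HSPA5: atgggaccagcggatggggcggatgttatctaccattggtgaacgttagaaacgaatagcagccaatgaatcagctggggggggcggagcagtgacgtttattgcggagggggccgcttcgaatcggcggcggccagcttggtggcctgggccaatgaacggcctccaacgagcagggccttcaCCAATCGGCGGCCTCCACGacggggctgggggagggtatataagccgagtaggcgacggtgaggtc
ERO1A: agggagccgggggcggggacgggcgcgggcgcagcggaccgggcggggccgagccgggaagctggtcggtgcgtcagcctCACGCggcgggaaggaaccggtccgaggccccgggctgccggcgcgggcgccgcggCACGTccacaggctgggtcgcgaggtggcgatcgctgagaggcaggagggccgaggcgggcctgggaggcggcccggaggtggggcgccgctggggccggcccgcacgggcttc

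Tumor 1 gave 2536 spots with 58661164 UMIs (unique molecular identifiers, 1 per captured RNA) and tumor 2 gave 2841 with 39735490, at medians of 23574 and 15895 per spot. The line's mesenchymal genes were plentiful, with VIM at 5640 and 5550 CPM (UMIs scaled to a common library total). Of 6 genes that should be low in the line, ESR1, PGR and CDH1 stayed under 0.2 CPM in both tumors. ERBB2 had 26.2 and 25.3 CPM, EPCAM 19.7 and 17.8 CPM, and GATA3 5.8 and 5.76 CPM in tumors 1 and 2. An area of low UMI counts covered 20.9% of spots in tumor 1 and 29.2% in tumor 2 (of the score quartiles described next, 15.0% of the top and 10.6% of the bottom one in tumor 1, 7.04% and 57.9% in tumor 2). Host RNA that aligned to human genes is counted with the tumor's own. Of the other cells' markers, all 8 fibroblast genes had UMIs in both tumors, though DCN had only 8 UMIs in tumor 2. Their summed level was 1090 CPM in the top and 873 CPM in the bottom score quartile of tumor 1. In tumor 2 it was 796 CPM in the top and 1850 CPM in the bottom quartile, so the sums ran in opposite directions. Most of these UMIs were COL1A1, COL1A2 and COL3A1. FAP, FBLN1 and PDGFRA were instead lower in the top quartile of both tumors. Of 6 fibroblast markers in the test described next, 2 (FAP and FBLN1) were called lower with the score and 0 higher. The 7 skeletal muscle genes summed to 3.90 and 3.92 CPM in the top quartiles and to 3.06 and 504 CPM in the bottom ones. Plasma cells express several members strongly. Of their 7 marker genes, IGHG1 was at 0 in every zone, JCHAIN and IGKC had at most 3 UMIs per tumor, and most of the list's UMIs were SDC1. The tumors share 1627 spot barcodes, since slides carry the same barcode set. All 10 members passed the filter on low counts, with 784 UMIs (DNAJB9 in tumor 2) to 41812 (HSP90B1 in tumor 1) per tumor.

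The hypoxia score of a spot was the mean standardised level of 28 hypoxia genes, none of them a member, averaged with the adjacent spots. Spots of each tumor were split into quartiles of the score, and UMIs were summed per tumor and quartile. Then edgeR's quasi-likelihood test with the tumor as a block was run over 14779 genes. The p-values were adjusted over all of these, score genes included, and calls were counted over the 14751 genes outside the score. In all, 8 of the 10 members were higher in the top than in the bottom quartile at a Benjamini-Hochberg adjusted p of 0.05, and 0 were lower. ERO1A and DNAJB9 changed most, HSPA5 and HSP90B1 next, and CALR and SDF2L1 did not pass. In the background, 11.9% of all genes were called higher (1750) and 10.4% lower (1537). With library size alone as the scaling, the split was 1027 higher and 3067 lower, and the median of all genes lay at log2 -0.113. The median log2 fold change of the members was 0.38, against 0.002 over all genes. Levels below are TMM-scaled CPM, 1 value per tumor and zone (n = 2 tumors), and errors of fold changes are standard errors of the fit. The score and the members were read from the same spots, and in a spot fewer cells and less RNA per cell cannot be told apart.

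ERO1A, the oxidase that hands electrons from the isomerases to oxygen, had 261 CPM in the top quartile and 134 CPM in the bottom quartile of tumor 1. In tumor 2 it had 230 CPM in the top and 128 CPM in the bottom quartile. ERO1A ranked 358 of 14751 genes by fold change (log2 0.91 ± 0.06, 1.88-fold, edgeR adjusted p 2.45e-07).

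Of the lumenal chaperones, HSPA5 had 548 CPM in the top and 399 CPM in the bottom quartile of tumor 1, and 602 CPM in the top and 388 CPM in the bottom quartile of tumor 2. It rose in both tumors (log2 0.55 ± 0.08, 1.46-fold, edgeR adjusted p 0.000293). HSP90B1 had 888 CPM in the top and 625 CPM in the bottom quartile of tumor 1, and 840 CPM in the top and 635 CPM in the bottom quartile of tumor 2. It rose in both tumors too (log2 0.46 ± 0.06, edgeR adjusted p 5.78e-05). CALR, which with CANX holds glycoproteins until they are folded, had 536 CPM in the top and 488 CPM in the bottom quartile of tumor 1, but 639 CPM in the top and 693 CPM in the bottom quartile of tumor 2. The tumors thus ran in opposite directions, and no difference passed (log2 0.01 ± 0.07, edgeR adjusted p 0.939).

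The co-chaperones DNAJB9 and SDF2L1 differed in their calls. DNAJB9 (ERdj4), a J-domain protein that works with HSPA5 and helps to keep IRE1 silent, had 24.1 CPM (290 UMIs) in the top and 15.0 CPM (276 UMIs) in the bottom quartile of tumor 1. In tumor 2 it had 25.0 CPM (287 UMIs) in the top and 13 CPM (80 UMIs) in the bottom quartile. The fold change of DNAJB9 was 1.72 (log2 0.78 ± 0.11, edgeR adjusted p 0.000181). SDF2L1, a lumenal partner of the J-domain protein DNAJB11 that holds misfolded chains in solution, had 38.0 CPM in the top and 44.1 CPM in the bottom quartile of tumor 1, and 44.2 CPM in the top and 44.5 CPM in the bottom quartile of tumor 2. It did not pass (log2 -0.12 ± 0.08, edgeR adjusted p 0.288). With library size alone as the scaling it was called lower (log2 -0.24, edgeR adjusted p 0.0375), and in 14 other alternatives it was not called.

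Changes of the isomerases were small. PDIA6, which also binds the lumenal part of IRE1, had 332 CPM in the top and 290 CPM in the bottom quartile of tumor 1, and 352 CPM in the top and 293 CPM in the bottom quartile of tumor 2 (log2 0.23 ± 0.06, edgeR adjusted p 0.0089). PDIA4 (ERp72) had 145 CPM in the top and 122 CPM in the bottom quartile of tumor 1, and 153 CPM in the top and 142 CPM in the bottom quartile of tumor 2 (log2 0.18 ± 0.06, edgeR adjusted p 0.0411). Both passed, PDIA4 close to the threshold. Its call was lost under 7 of 15 alternative settings, and that of PDIA6 under 4.

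HERPUD1, a membrane protein of the complex that exports misfolded proteins for degradation, had 58.1 CPM in the top and 45.8 CPM in the bottom quartile of tumor 1, and 58.6 CPM in the top and 42.5 CPM in the bottom quartile of tumor 2 (log2 0.40 ± 0.08, edgeR adjusted p 0.00279). XBP1, the transcription factor whose mRNA IRE1 splices, had 53.5 CPM in the top and 43.5 CPM in the bottom quartile of tumor 1, and 56.0 CPM in the top and 41.4 CPM in the bottom quartile of tumor 2 (log2 0.35 ± 0.08, edgeR adjusted p 0.00478). Both genes rose in both tumors. The counts do not separate spliced from unspliced XBP1 mRNA. HERPUD1 turned to log2 -0.13 and XBP1 to 0.03 (edgeR adjusted p 0.825 and 0.974) when spots were thinned to 1149 UMIs. That setting gives the spots it keeps equal weight and leaves out shallower ones, 1 in tumor 1 and 284 in tumor 2. It also draws the score and its quartiles anew from the thinned counts, as does the setting named next. With spots thinned to 8121 UMIs and the low-UMI area left out, an alternative chosen after seeing the data, both rose again (log2 0.50 and 0.33, edgeR adjusted p 0.00203 and 0.0413).

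Leaving out the low-UMI area kept the count at 8 of 10 members higher, with HSPA5 at log2 0.57, DNAJB9 at 0.84 and ERO1A at 0.91. The count was also 8 without the spots richest in markers of other cells, where the same genes had log2 0.62, 0.86 and 0.94. Of 6 tested macrophage and granulocyte markers 1 was called higher with the score, CD68 (log2 0.68 ± 0.07), and 3 lower, AIF1, C1QA and C1QB.

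**Figure D1:**
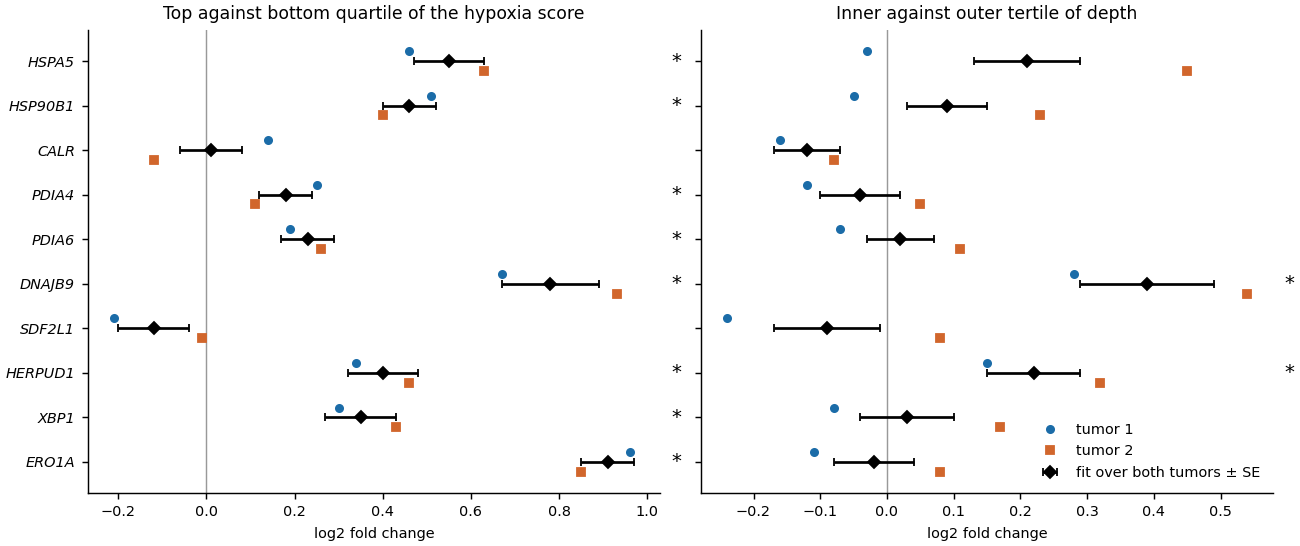
Log2 fold changes of the 10 members between the top and bottom score quartile (left) and between the inner and outer depth tertile (right). Circles and squares are tumor 1 and tumor 2, diamonds with bars are the edgeR estimate over both tumors with its standard error, and asterisks at the right edge mark an adjusted p under 0.05: 8 members on the left, and DNAJB9 and HERPUD1 on the right.

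The quartiles of the score were also compared in steps. Against the bottom quartile, 0 members passed in the 2nd quartile in the main setting. There 0 genes (0% in either direction) were called in all, and 0 with the DESeq2 test, although 619 genes had an unadjusted edgeR p under 0.05. Some alternatives did call genes in this step, at most 48 higher and 24 lower (with no filter on low counts). With at least 2000 UMIs per spot the counts were 31 and 3, and with thinned spots 32 and 7. In the 3rd quartile 4 members were higher against the bottom quartile, in a background of 2.65% of genes higher and 1.76% lower. These were ERO1A (log2 0.40 ± 0.06, edgeR adjusted p 0.00232), DNAJB9 (0.53 ± 0.11, 0.0133), HSP90B1 (0.22 ± 0.06, 0.0346) and HSPA5 (0.31 ± 0.08, 0.0415). With no replicate block 0 genes were called in this comparison (1460 with an unadjusted edgeR p under 0.05), so all 4 calls were lost, and with the DESeq2 test ERO1A alone of the members was called. The 2nd and the bottom quartile were therefore not told apart for any member in the main setting. ERO1A (log2 0.21 ± 0.06, unadjusted edgeR p 0.00525) and DNAJB9 (0.27 ± 0.11, 0.0307) still lay higher in the 2nd quartile in both tumors. The other members had log2 values from -0.06 (CALR) to 0.10 (XBP1). These steps thus do not show at which score the change begins.

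A division into 10 equal bins of the score, bin 1 the lowest, resolves the shape for each tumor, as a description with no test. ERO1A climbed slowly up to bin 7 and more steeply after it. In tumor 1 it was lowest in bin 1, at 122 CPM, the median over bins was 178 CPM and bin 10 had 300 CPM (Spearman rho with the bin number 1.0). In tumor 2 it was lowest in bin 3, at 117 CPM, the median was 150 CPM and bin 10 had 283 CPM (rho 0.95). HSP90B1 kept a near straight course in tumor 1, with 608 CPM in bin 1 and 955 CPM in bin 10 (rho 0.99), and in tumor 2 it was lowest in bin 3 and highest in bin 10 (rho 0.81). HSPA5 ran between 383 CPM in bin 1 and 571 CPM in bin 10 of tumor 1, and between 349 CPM in bin 4 and 645 CPM in bin 9 of tumor 2.

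In tumor 2 several members were higher in bin 1 than in the next ones. HERPUD1 had its highest level there, 65.3 CPM from 62 UMIs, followed by 38.9 CPM in bin 2. XBP1 had 49.5 CPM in bin 1 and 35.6 CPM in bin 2. CALR in tumor 2 was also highest in bin 1, at 748 CPM, and lowest in bin 6, at 602 CPM (rho -0.62), while in tumor 1 its rho was 0.72 within a range of 471 to 555 CPM. That bin of tumor 2 held 285 spots with 920505 UMIs, and bin 10 held 284 with 4262104.

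**Figure D2:**
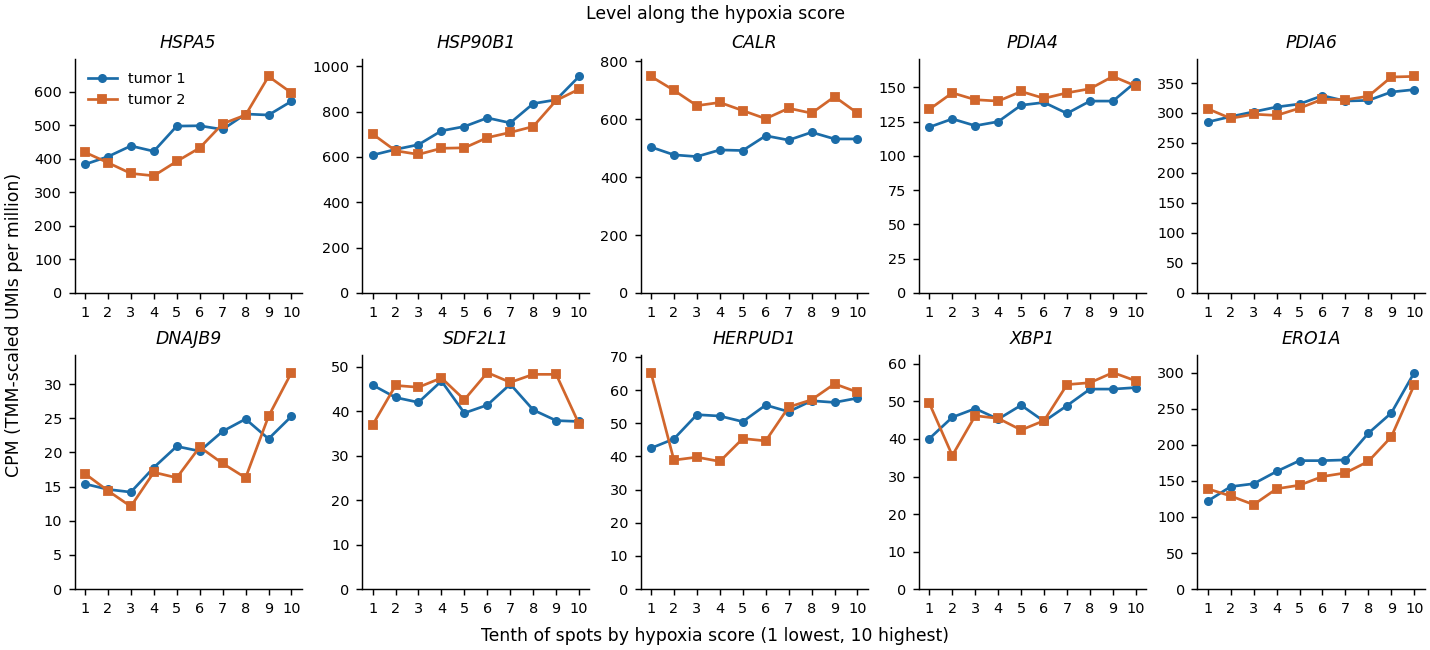
Level of each member in 10 equal bins of spots ordered by the hypoxia score, from 1 (lowest) to 10 (highest), in CPM on axes that start at 0, with circles for tumor 1 and squares for tumor 2. ERO1A reaches 300 and 283 CPM in bin 10, SDF2L1 stays between 36.9 and 48.7 CPM, and HERPUD1 in tumor 2 starts at its highest value, 65.3 CPM.

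Depth was counted in steps from a spot to the tissue border, so no expression value enters those zones. The inner tertile lay 13 to 26 steps from the border in tumor 1 and 16 to 28 in tumor 2, and the outer tertile 1 to 5 and 1 to 7 steps. Of the 10 members, 2, DNAJB9 and HERPUD1, were higher in the inner than in the outer tertile, and 0 were lower, in a background of 4.33% of 15005 genes higher and 5.66% lower. The median log2 fold change of the members was 0.02, against -0.001 over all genes. The inner tertiles also held more of the low-UMI area, 42.8% and 57.1% of spots against 6.31% and 10.4% of the outer ones. Fibroblast markers summed to 505 and 353 CPM in the inner tertiles and 1420 and 1930 CPM in the outer ones, and muscle markers to 2.22 and 5.20 CPM in the inner and 4.45 and 310 CPM in the outer ones. Red blood cell markers ran the other way, at 106 and 54.2 CPM in the inner and 54.8 and 42.2 CPM in the outer tertiles, with HBB, a hemoglobin chain, called higher (log2 0.71 ± 0.10, edgeR adjusted p 0.00053). Most UMIs of the macrophage and granulocyte markers were CD68, which did not pass in depth (log2 0.14 ± 0.09, edgeR adjusted p 0.371). Of 6 tested markers on that list 4 were called lower in inner tissue. The list summed to 185 and 205 CPM in the inner and 219 and 175 CPM in the outer tertiles. Of the 6 genes that mark MDA-MB-231 cells 4 were also lower in inner tissue, with sums of 8510 and 8270 CPM in the inner and 10100 and 9990 CPM in the outer tertiles. The part of these cells in the members' values was not tested.

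DNAJB9 had 21.2 and 24.3 CPM in the inner tertiles of tumors 1 and 2, and 17.5 and 16.7 CPM in the outer ones (log2 0.39 ± 0.10, edgeR adjusted p 0.024). HERPUD1 had 52.4 and 55.6 CPM in the inner tertiles, and 47.3 and 44.5 CPM in the outer ones (log2 0.22 ± 0.07, edgeR adjusted p 0.0486). Both calls depended on the settings: DNAJB9 passed under 6 of 13 alternatives and HERPUD1 under 4. Without the low-UMI area both still passed (log2 0.40 and 0.24, edgeR adjusted p 0.0213 and 0.0459).

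HSPA5 showed the tumors apart. It had 439 CPM in the inner and 447 CPM in the outer tertile of tumor 1, against 533 CPM in the inner and 390 CPM in the outer tertile of tumor 2, and did not pass (log2 0.21 ± 0.08, edgeR adjusted p 0.11). Over 5 bins of depth its highest value lay in bin 3 in both tumors, at 507 and 564 CPM. The innermost bin was the lowest in tumor 1, at 426 CPM, but had 560 CPM in tumor 2, close to bin 3. It passed under 2 of 13 alternatives, with no filter on low counts and with spots thinned outside the low-UMI area. ERO1A, which changed most with the score, had 173 and 173 CPM in the inner tertiles and 186 and 163 CPM in the outer ones (log2 -0.02 ± 0.06, edgeR adjusted p 0.892).

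The remaining members did not pass between inner and outer tissue, with log2 values from -0.12 ± 0.05 (CALR, edgeR adjusted p 0.132) to 0.09 ± 0.06 (HSP90B1, 0.387). CALR had 480 and 631 CPM in the inner tertiles and 536 and 667 CPM in the outer ones. It was called lower, at log2 -0.16 and an edgeR adjusted p of 0.0019, when the frame of the slide counted as border. Between the middle and the outer tertile 0 members passed, in a background of 0.873% of genes higher and 1.68% lower, and HSPA5 and HERPUD1 came closest (log2 0.29 ± 0.08 and 0.23 ± 0.06, edgeR adjusted p 0.06 and 0.0718).

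**Figure D3:**
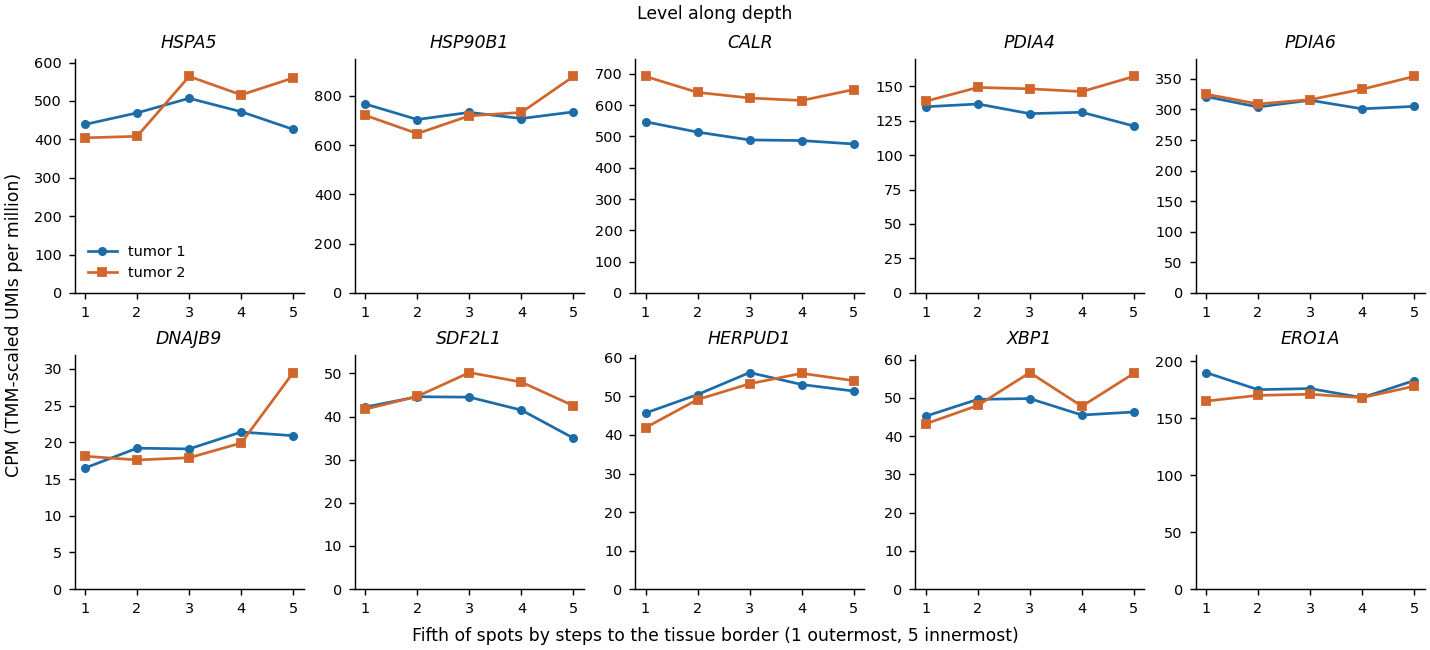
Level of each member in 5 bins of spots by steps to the tissue border, from 1 (outermost) to 5 (innermost), in CPM on axes that start at 0, with circles for tumor 1 and squares for tumor 2. DNAJB9 in tumor 2 reaches 29.5 CPM in the innermost bin, and ERO1A stays between 165 and 190 CPM. HSPA5 in tumor 1 peaks in bin 3 and falls to 426 CPM in bin 5, while in tumor 2 it has 564 CPM in bin 3 and 560 CPM in bin 5.

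Score and depth were then crossed, with each section split at the median of both. In outer tissue 6 members were higher in high-score than in low-score spots, in a background of 5.98% of 14685 genes higher and 4.42% lower. These were ERO1A (log2 0.64 ± 0.06, edgeR adjusted p 3.65e-06), HSPA5 (0.39 ± 0.07, 0.00148), DNAJB9 (0.56 ± 0.10, 0.00244), HSP90B1 (0.31 ± 0.06, 0.00409), HERPUD1 (0.35 ± 0.07, 0.00417) and XBP1 (0.24 ± 0.07, 0.0429). In inner tissue 2 members were higher in high-score spots, in a background of 2.23% higher and 1% lower: ERO1A (log2 0.45 ± 0.07, edgeR adjusted p 0.000955) and HSPA5 (0.37 ± 0.07, 0.00693). With no replicate block 0 genes were called in inner tissue (1371 with an unadjusted edgeR p under 0.05), so both calls were lost, and in outer tissue 2 members, ERO1A and DNAJB9, were still called. Without the low-UMI area 4 members were higher in inner tissue, HSP90B1 and DNAJB9 being added. ERO1A had 212 and 177 CPM in high-score and 148 and 137 CPM in low-score spots of inner tissue, and 226 and 210 CPM in high-score and 146 and 133 CPM in low-score spots of outer tissue. In tumor 2 the low-score spots of inner tissue held 2702359 UMIs, and 86.4% of its spots were in the low-UMI area.

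The difference between inner and outer tissue was tested directly, and 0 members passed. Over all genes 0% were called in either direction by edgeR (0 also by DESeq2), while 437 genes had an unadjusted edgeR p under 0.05. ERO1A and HERPUD1 had the lowest unadjusted p, 0.0445 and 0.0722 (inner minus outer log2 -0.20 ± 0.09 and -0.20 ± 0.11, edgeR adjusted p 1.0 for both). HSPA5 differed by log2 -0.02 ± 0.10. In simulated counts this test recovered 52% of genes changed by log2 0.5, so differences of the size seen in the members can be missed.

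The low-UMI area was followed outward in zones of steps, as a description. SDF2L1 was lowest inside it and higher with each zone away from it, at 27.5, 35.7, 40.7 and 42.9 CPM in tumor 1 and 32.1, 39.8, 40.3 and 46.3 CPM in tumor 2 (inside, 1 to 2, 3 to 5 and at least 6 steps away). DNAJB9 ran the other way, at 26.8, 20.6, 19.1 and 17.5 CPM in tumor 1 and 34.3, 30.4, 17.8 and 16.8 CPM in tumor 2. Those inner values rest on few counts, 71 and 44 UMIs for SDF2L1 and 69 and 47 for DNAJB9. ERO1A was highest just outside the area, with 214, 229, 178 and 160 CPM in tumor 1 and 184, 250, 159 and 154 CPM in tumor 2. HSP90B1 had 978 CPM inside and 647 CPM farthest away in tumor 2, and 817 and 680 CPM in tumor 1. CALR varied least between these zones, from 488 to 522 CPM in tumor 1 and 588 to 646 CPM in tumor 2.

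**Figure D4:**
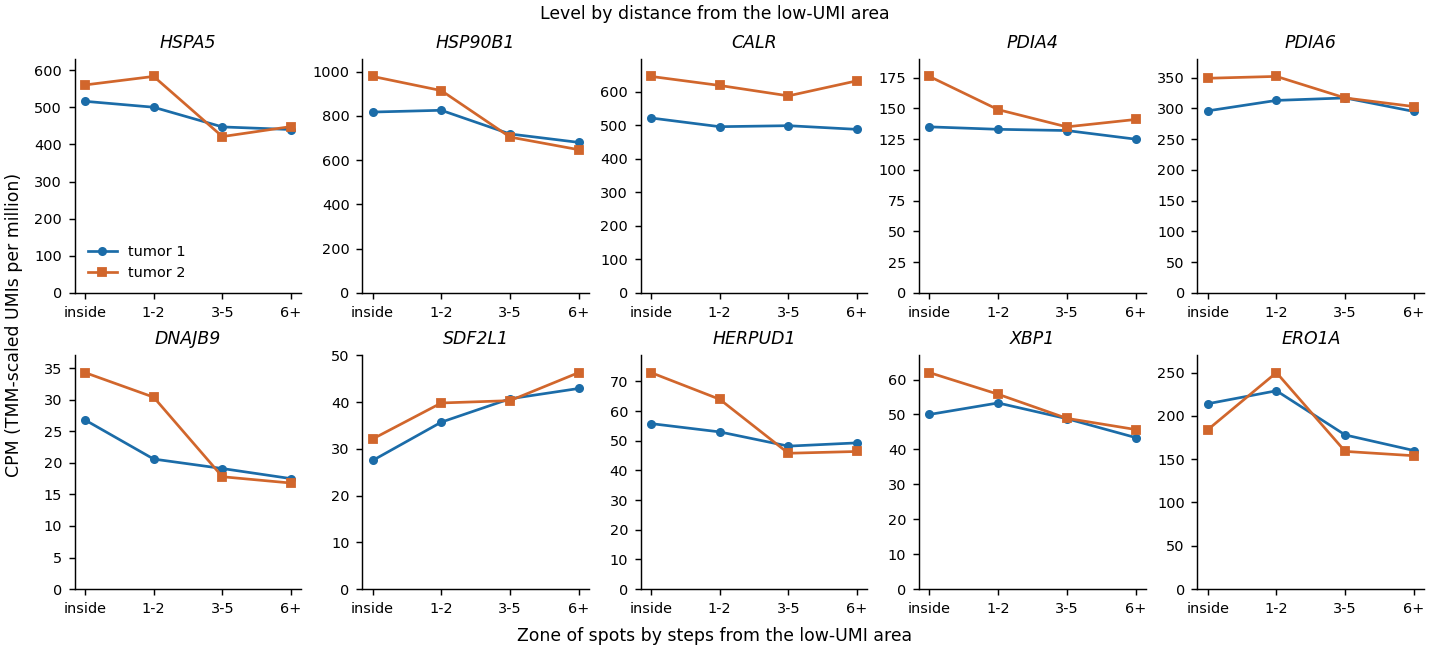
Level of each member inside the low-UMI area and in zones 1 to 2, 3 to 5 and at least 6 steps outside it, in CPM on axes that start at 0, with circles for tumor 1 and squares for tumor 2. SDF2L1 climbs away from the area in both tumors, DNAJB9 declines, and ERO1A peaks 1 to 2 steps outside it at 229 and 250 CPM.

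Patches of 8 array rows by 16 columns show which members share a pattern without using the score. Over 92 patches, centred within each tumor, the log2 CPM of HSP90B1 and DNAJB9 had a Pearson r of 0.63 (0.31 in tumor 1, 0.71 in tumor 2), and HSPA5 and HSP90B1 0.51. SDF2L1 went against HSP90B1 (-0.41) and ERO1A (-0.39). HSPA5 and ERO1A, the chaperone and the oxidase, shared little (0.19, with 0.30 in tumor 1 and 0.15 in tumor 2). ERO1A followed the mean score of the patches in both tumors (r 0.70 in all, 0.79 in tumor 1 and 0.67 in tumor 2). HSP90B1 had r 0.63 with the score in tumor 1 but 0.06 in tumor 2, and HSPA5 had 0.21 and 0.05.

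The values differed with and without the low-UMI area. Over all spots HSP90B1 had r -0.67 with the log2 median UMI count of the patch, DNAJB9 -0.48 and SDF2L1 0.50. In 74 patches of spots outside the area, r with the score was 0.82 in tumor 1 and 0.92 in tumor 2 for ERO1A, 0.65 and 0.77 for HSP90B1, and -0.35 and -0.61 for SDF2L1. For DNAJB9 it was 0.12 in tumor 1 and 0.68 in tumor 2, and for HSPA5 0.09 and 0.40, so that these values were high in tumor 2 alone. There the member most like HSPA5 was DNAJB9 in tumor 1 (r 0.45) and HERPUD1 in tumor 2 (0.65), and the one most like HSP90B1 was ERO1A in both (0.50 and 0.74). Patches of a section share a library and neighbours, so these values are descriptions.

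Genes most like HSPA5 over the 92 patches, among 6706 genes of at least 20 CPM outside the members and the score, were ZFAS1 (r 0.64), a host RNA of small nucleolar RNAs, the small heat shock protein HSPB1 (0.63), the elongation factor EEF1A1 (0.61) and the ribosomal proteins RPL10A (0.61) and RPL12 (0.59). Those most like ERO1A were the glycolytic enzyme ENO1 (0.82), LIMCH1 (0.79), the antiproliferative protein BTG1 (0.77), the angiogenic factor VEGFA (0.77) and the RNA-binding protein ZFP36L1 (0.77). Of the genes like HSPA5, HSPB1 had r 0.32 in tumor 1 and 0.73 in tumor 2. The others had 0.45 to 0.51 in tumor 1 and 0.64 to 0.69 in tumor 2. All these values include the patches of the low-UMI area. Moran I, the likeness of adjacent spots, was 0.112 and 0.144 for HSPA5, 0.087 and 0.159 for ERO1A, and 0.121 and 0.191 for CALR in tumors 1 and 2. By it CALR ranked 544 and 433 of 4693 genes, the members' highest rank in tumor 2, and HERPUD1 2217 and 4332.

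**Figure D5:**
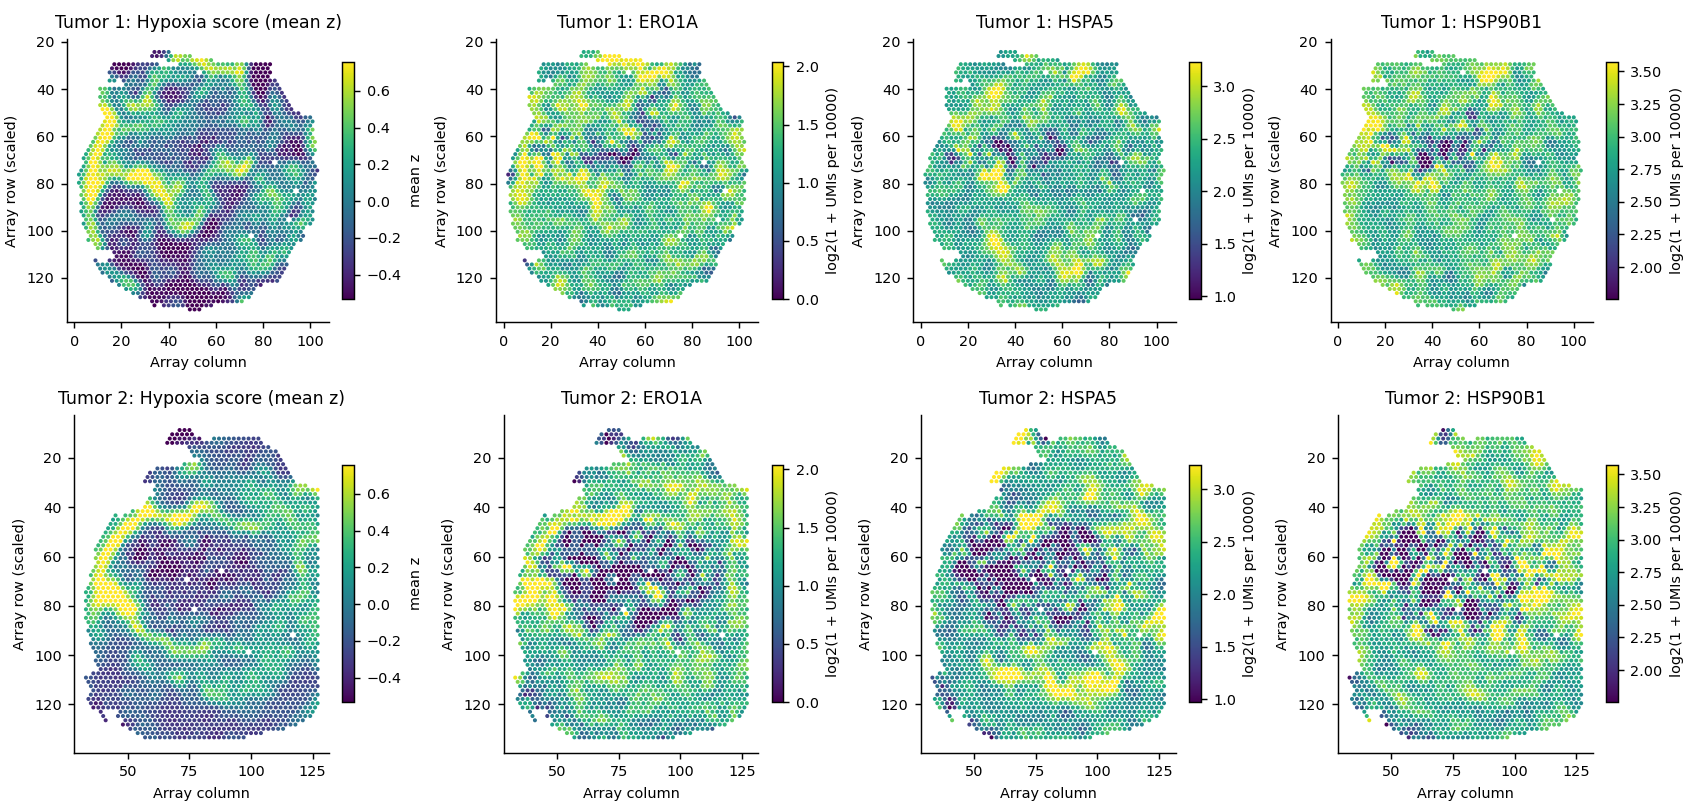
Maps of the hypoxia score (mean standardised level) and of ERO1A, HSPA5 and HSP90B1 (log2 of 1 plus UMIs per 10000, averaged with adjacent spots) over the kept spots of tumor 1 (top) and tumor 2 (bottom), in array coordinates, with the lowest and highest values clipped. ERO1A is high along the bands of high score, HSPA5 has further high patches away from them, and in the middle of tumor 2 single spots vary widely. The low-UMI area of tumor 2, which covers 57.1% of the inner tertile there, has a median of 1440 UMIs per spot.

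The members were set beside other genes of the same pathways, listed by function. The counts below stand against 11.9% of all genes higher and 10.4% lower with the score, and 4.33% higher and 5.66% lower in depth. Several lie near those shares, and a share near them is no result about the list. Of 11 targets of the PERK arm 4 were higher with the score and 0 lower, with a median log2 of 0.27 (0.07 in tumor 1, 0.57 in tumor 2). PPP1R15A, a phosphatase subunit that restores translation, had 120 and 131 CPM in the top and 56.0 and 52.9 CPM in the bottom quartiles (log2 1.19 ± 0.09), a larger change than that of any member. The transcription factors DDIT3 (CHOP) and ATF3 had log2 0.88 ± 0.10 and 0.88 ± 0.13 (edgeR adjusted p 2.91e-05 and 0.000293). In depth 3 of the 11 were higher, among them ATF3 (log2 0.60 ± 0.11) and PPP1R15A (0.45 ± 0.07).

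Of 15 other ER chaperones and co-chaperones 4 were higher with the score and 0 lower (median log2 0.08), among them the collagen chaperone SERPINH1 (log2 0.64 ± 0.10), the prolyl isomerase FKBP2 (0.58 ± 0.18) and the J-domain protein DNAJC1 (0.32 ± 0.09). FKBP2 differed between the tumors, at 17.5 CPM in the top and 10.8 CPM in the bottom quartile of tumor 1, and 2.09 CPM in the top and 2.28 CPM in the bottom quartile of tumor 2. Of 15 oxidative folding genes 3 were higher and 0 lower: the sulfhydryl oxidase QSOX1 (log2 0.48 ± 0.07), ERP44 (0.22 ± 0.07), which retains ERO1A in the ER, and the isomerase P4HB (0.20 ± 0.07). In depth 1 of the 15 was higher, SELENOF (log2 0.29 ± 0.06), 4 were lower and 10 did not pass (median log2 -0.08). Of the lower ones PDIA3, the isomerase that works with CALR, changed most (log2 -0.27 ± 0.05). UGGT1, which sends unfolded glycoproteins back to CALR, was the 1 other chaperone lower in inner tissue (log2 -0.27 ± 0.07).

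Of 18 genes of ER-associated degradation 4 were higher with the score and 3 lower. SEL1L, the scaffold of the ligase complex that HERPUD1 joins, rose (log2 0.45 ± 0.08), as did EDEM1 (0.35 ± 0.08), while the segregase VCP fell in the top quartiles (log2 -0.43 ± 0.06) and in inner tissue (log2 -0.30 ± 0.05). Of 15 sensors and transducers 3 were higher and 1 lower, with NFYA, a subunit of NF-Y, at log2 0.41 ± 0.09, CREB3L2 at 0.34 ± 0.08 and EIF2S1 at -0.20 ± 0.05. Of 15 translocation genes 5 were higher and 0 lower, led by the channel subunit SEC61G (log2 0.54 ± 0.05). Of 17 genes of transport to the Golgi 4 were higher and 0 lower, led by the coat subunits SEC24A (log2 0.61 ± 0.08) and SEC24D (0.47 ± 0.10) and the cargo receptor LMAN1 (0.43 ± 0.07). In depth these last lists had 1 to 2 genes higher each, and 1 was lower, the translocon-associated SSR4 (log2 -0.30 ± 0.06). The share of members called higher with the score, 8 of 10, and these shares were not tested against each other.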

How the data were processed

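The authors deposited raw UMI counts for each gene in each spot. Space Ranger 1.3.0 made them, per the file headers, and the build was hg38, per the submitters' processing notes. Tissue spots under 500 UMIs were left out. UMIs were summed per tumor and zone (8 sums for the score, 6 for depth, 8 for both) and fitted in edgeR 4.0.16 (R 4.3.3) with TMM, filterByExpr, a tumor block and a quasi-likelihood F test, at an adjusted p of 0.05 over all genes. This leaves 3, 2 and 3 residual degrees of freedom. The block is given by the section. Low-UMI areas came from an Otsu threshold. In simulated counts 89% of genes changed by log2 0.5 were recovered for the score, with 14 false calls among 14779 genes. For depth 100% were recovered, and for the interaction of score and depth 52%. The simulation used 1 spread for all genes and no difference between tumors, and changed only genes of at least 20 CPM. Named genes were all members, the 3 (score) or 2 (depth) called genes of each pathway list with the largest fold change, and the 5 genes most like HSPA5 or ERO1A. The members and lists were chosen with earlier results of these data known. Promoters came from RefSeq, GRCh38.p14. Alternatives included DESeq2 1.42.0. Proteins and images were not analysed here.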

Additional observations from a re-analysis of the deposited data

How the results depend on the processing

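With the score, HSPA5, HSP90B1, DNAJB9 and ERO1A kept their call under all 15 alternatives that gave a test, 14 planned and 1 added after seeing the data. HSPA5 ranged over log2 0.44 to 0.63 and ERO1A over 0.80 to 1.01. Calls were lost for PDIA4 under 7, PDIA6 under 4, HERPUD1 under 2 and XBP1 under 2 of the 15. With no replicate block 5 members were higher, and with spots thinned 4, where HERPUD1 stood at log2 -0.13. With library size alone 1 member, SDF2L1, was lower. In depth the members called higher numbered 0 with the DESeq2 test, no replicate block, thinned spots or a split at the median, and 1 with the 2 tertiles alone, library size alone, at least 2000 UMIs, the frame edge as border (also 1 lower), without spots rich in other cells, or with thinned spots outside the low-UMI area. One tumor alone leaves no residual degrees of freedom, so its values carry no test: over the 2 tumors the log2 with the score was 0.45 to 0.63 for HSPA5, 0.84 to 0.95 for ERO1A and -0.12 to 0.13 for CALR, and in depth -0.03 to 0.45 for HSPA5. No interaction passed for a member in 5 alternatives. With no replicate block the members called were 0 for the 3rd against the bottom quartile, 0 for the score in inner tissue and 2 in outer tissue.

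Counts of all genes moved more. With the score 1027 were higher and 3067 lower with library size alone, 735 and 512 with the DESeq2 test, 501 and 322 with no replicate block, and 391 and 213 with thinned spots, while 985 were lower with only the top and bottom quartile in the fit and 996 with thinned spots outside the low-UMI area. In depth the counts were 113 higher and 243 lower with the DESeq2 test, 3 and 28 with no replicate block, 124 and 139 with thinned spots, 135 and 270 with a split at the median, 360 and 484 with thinned spots outside the low-UMI area, and 423 higher with the 2 tertiles alone. For the interaction 8 genes were higher and 32 lower with no filter on low counts, and 1 lower without the low-UMI area. Thinning lowers the counts per zone by construction, and the cause of the other changes was not tested. The sums rest on 2 tumors, and DNAJB9 on as few as 80 UMIs per quartile.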
